A study of Macaca fascicularis with 2 samples.

Results

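The genes described here are 10 secreted signals and response genes that the transcription factor NF-kB is known to control or that act in the same inflammatory setting. They are the chemokines *CXCL1*, *CXCL8*, *CXCL12*, *CXCL14*, *CCL2* and *CCL20*, the cytokines *IL6* and *LIF*, and the NF-kB feedback genes *NFKBIA* and *TNFAIP3*. They were taken by name from the 21371 genes counted, and 9 of the 10 were among them. *CCL20*, a chemokine for cells that carry the receptor CCR6, was not analysed here. Each gene was described in 3 groups of cells and in the 4 tags that the cells carried.

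Cells in cartilage and disc that receive inflammatory signals such as IL-1 or TNF release NF-kB from its inhibitors, and NF-kB then enters the nucleus and switches on genes for chemokines, cytokines and matrix-degrading enzymes. Among these targets are *NFKBIA*, whose product IkBα holds NF-kB in the cytoplasm, and *TNFAIP3*, whose product A20 edits ubiquitin chains on the signalling complexes, so that the response limits itself. *CXCL1* and *CXCL8* encode chemokines that attract neutrophils through the receptors CXCR1 and CXCR2, *CCL2* encodes an attractant of monocytes, and *IL6* and *LIF* encode related cytokines that signal through the shared receptor subunit gp130. *CXCL12* and *CXCL14* are mostly produced without inflammation. NF-kB dependent chemokines and matrix proteases are known from degenerating discs and from osteoarthritic cartilage.

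The cells came from the nucleus pulposus (NP) of a lumbar disc and the articular cartilage (AC) of the femoral condyle of male, wild type cynomolgus monkeys, both 3 years old, and no treatment was compared. One animal gave NP and AC and the other gave AC. The tissues were digested with Liberase TM and DNase, which by the study's own account took longer for AC than for NP. Live cells were labelled with antibody tags, sorted and sequenced in 1 pooled library. Of 5723 cells, 5674 carried a single tag, namely 997 with tag A951, 1132 with A952, 1383 with A953 and 2162 with A954, while 42 were marked as doublets and 7 had no tag. No source used here pairs the tags with the tissues, therefore NP and AC were not separated and the tags were only set side by side.

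Notochordal cells (NCs), the remnants of the embryonic notochord that persist in the NP, were defined as cells with at least 5 reads of *KRT19* and at least 5 reads of *TBXT*. There were 310 NCs, of which 67 carried A951, 236 carried A952, 5 carried A953 and 2 carried A954. *CXCL1*-high cells were the cells with *CXCL1* at 100 or more reads per 1000000 reads of the cell (rpm). There were 45 of them (4, 10, 17 and 14 in A951 to A954), and none was an NC. The remaining 5319 cells are called other cells. Of the notochordal markers that did not define the NCs, *NCAM1* read 506 rpm in NCs, 30.9 rpm in *CXCL1*-high cells and 25.1 rpm in other cells, *CDH2* 120, 0.857 and 1.17 rpm, and *SHH*, the hedgehog ligand, 98.7, 0.0857 and 0.853 rpm. The 8 chondrocyte markers summed to 18309, 24018 and 35283 rpm, of which *COL2A1* gave 1269, 13104 and 20140 rpm and *ACAN* 14440, 2863 and 3977 rpm. *CXCL1*-high cells are therefore described by the gene that chose them, and no cell type is given to them.

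The depth was similar in the 3 groups. NCs had a median of 186370 reads and 4061 genes, *CXCL1*-high cells 210949 reads and 3863 genes, and other cells 198478 reads and 3814 genes. Levels are pooled rpm, the reads of a gene in a group divided by all reads of the group, with exact Poisson intervals, and shares of cells have Clopper-Pearson intervals, both at 95%. Reads were counted without molecular identifiers, so these intervals cover counting error only and are narrower than the variation between cells. All values come from 1 library, cells are not replicates, and no p-value is given. A ratio is called at 2-fold or more, which is 1 on the log2 scale, and a group with fewer than 3 reads was set to 3 reads.

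The reads of most of the 9 genes lay in few cells, whereas *LIF* and *NFKBIA* were spread over more. The 61434 reads of *CXCL1* came from 869 cells, and 6 cells held 50% or more of them. The same was true of 16 cells for *CXCL8*, 4 for *CXCL12*, 34 for *CXCL14*, 28 for *CCL2*, 30 for *IL6* and 27 for *TNFAIP3*, whereas 188 cells were needed for *LIF* and 263 for *NFKBIA*. Of the cells with a read of a gene, between 23.4% (*NFKBIA*) and 81.5% (*CXCL12*) had 1 read only. *NFKBIA* had 5 or more reads in 2177 of its 3891 cells with a read, and *CXCL14* in 219 of 378. *CXCL8* had a read in 2442 cells, of which 1319 had 1 read and 176 reached 100 rpm, and those 176 cells held 98.1% of its reads. Single reads of *CXCL8* were as common in NCs as elsewhere, since 38.1% of NCs and 43.2% of other cells had at least 1 read but 3.87% and 4.14% had at least 5. No cell type known to lack these genes was present for comparison, therefore shares of cells with a single read were not read as expression, and 100 rpm was used instead.

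*CXCL1* was high in few cells, with no gap at the limit of 100 rpm. It had no read in 4805 cells, was above 0 and below 10 rpm in 605, from 10 to below 50 rpm in 190, from 50 to below 100 rpm in 29 and at 100 rpm or more in 45. Of those 45 cells, 26 were at 1000 rpm or more. The lowest had 100.2 rpm, the highest 32771 rpm and the median 2044 rpm, while the highest cell left out had 89.8 rpm. The fewest *CXCL1* reads in one of the 45 cells were 6. The 45 cells made up 0.793% of tagged cells (0.579 to 1.06%) and held 96.5% of all *CXCL1* reads. Their share was 0.401% in A951 (0.109 to 1.02%), 0.883% in A952 (0.424 to 1.62%), 1.23% in A953 (0.718 to 1.96%) and 0.648% in A954 (0.354 to 1.08%). Cells of this kind were thus present with every tag, and the intervals of the 4 tags overlapped. *CXCL6* and *CXCL8* are neighbours of *CXCL1* in the RefSeq annotation of this species, and reads that map to several near-identical chemokine genes could be counted under *CXCL1*. *CXCL2* and *CXCL3*, its closest relatives, were not analysed here.

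Other genes of the NF-kB response were higher in *CXCL1*-high cells than in other cells. Of the 9 genes, *CXCL1* chose the group and is given only as a description (5080 against 1.68 rpm), and *CXCL12* and *CXCL14* were detected in too few cells of both groups to be counted. The other 6 genes, *CXCL8*, *IL6*, *CCL2*, *NFKBIA*, *LIF* and *TNFAIP3*, were all 2-fold or more higher, with a median log2 ratio of 2.40. Over the 11390 genes with a read in 5% or more of either group's cells, 6.66% were 2-fold or more higher and 24.7% were 2-fold or more lower, and the median was -0.26. The ratio of *TNFAIP3* rested on 1 cell, as given below.

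**Figure D1:**
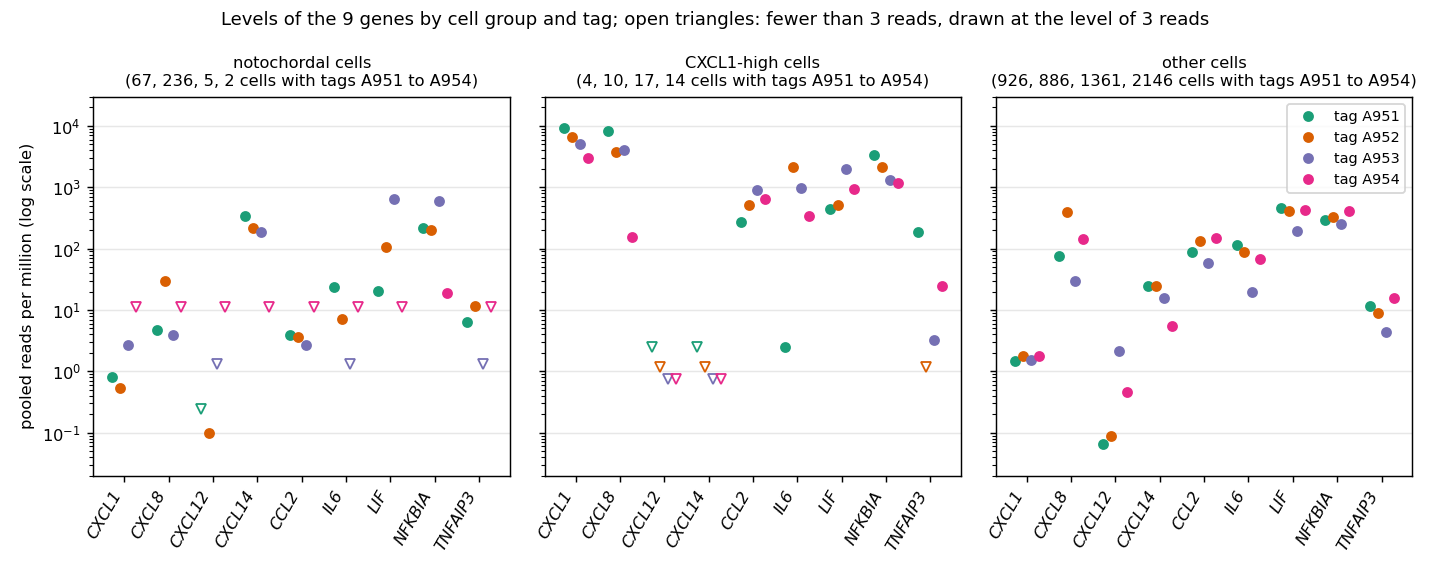
Pooled rpm (log scale) of each of the 9 genes in notochordal, CXCL1-high and other cells, with 1 point per tag and open triangles where a group had fewer than 3 reads. CXCL14 reads 190 to 340 rpm in notochordal cells of 3 tags, and CXCL8, CCL2 and NFKBIA lie higher in CXCL1-high than in other cells of the same tag; points are to be compared within a gene, since levels are not scaled by gene length.

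*CXCL8*, the main neutrophil attractant of primates, read 8133, 3713, 4081 and 155 rpm in *CXCL1*-high cells with tags A951 to A954, and 76.6, 393, 29.3 and 142 rpm in other cells with the same tags. The *CXCL1*-high cells were higher in all 4 tags, but in A954 the difference was a log2 ratio of only 0.13. Over all tags the level was 3072 rpm (3040 to 3104) against 138 rpm (137 to 138), a log2 ratio of 4.48. Only 1 of the 4 A951 cells had any *CXCL8* read, and 1 of the 14 A954 cells held 97.6% of the reads there. The A951 cell held 26.8% of the reads of all *CXCL1*-high cells, and without it the log2 ratio was 4.06. At 100 rpm or more, *CXCL8* was found in 10 of 45 *CXCL1*-high cells (22.2%, 11.2 to 37.1%) and in 166 of the 5629 cells that were not *CXCL1*-high (2.95%, 2.52 to 3.42%). Read the other way, 5.68% of the 176 cells with high *CXCL8* had high *CXCL1* (2.76 to 10.2%), against 0.637% of the remaining 5498 cells (0.444 to 0.884%). High *CXCL1* was thus more frequent in cells with high *CXCL8* than in the rest. The majority of cells high in either chemokine were still not high in the other. For *CXCL8* this follows from the group sizes, since only 45 cells had high *CXCL1*.

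*CCL2*, the monocyte attractant, read 268, 515, 894 and 634 rpm in *CXCL1*-high cells with A951 to A954 and 88.6, 132, 58.5 and 150 rpm in other cells. The 2 ranges did not overlap. Over all tags *CCL2* had a level of 660 rpm (646 to 675) against 114 rpm (114 to 115), and the log2 ratio was 2.53, or 2.13 without the A954 cell that held 24.9% of its reads. Single cells carried several of these levels: 1 cell held 99.4% of the reads in A951, all of them in A952 and 76.1% in A954. The share of cells at 100 rpm or more was 26.7% (14.6 to 41.9%) against 4.92% in the cells that were not *CXCL1*-high.

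*IL6*, a cytokine that acts through gp130, was the least even of the genes. It read 2.54, 2164, 980 and 338 rpm in *CXCL1*-high cells of A951 to A954 and 115, 88.1, 19.5 and 67.5 rpm in other cells. The 4 A951 cells had 3 reads of *IL6* in all (0.524 to 7.42 rpm) and lay below the other cells of their tag, whereas the remaining 3 tags lay above them. The pooled level was 917 rpm (899 to 934) against 65.3 rpm, with a log2 ratio of 3.81. One A952 cell held 99.2% of the reads of its tag and 50.4% of those of the group, and the log2 ratio was 2.83 without it. *IL6* was at 100 rpm or more in 7 of 45 cells (15.6%, 6.49 to 29.5%) against 4.44% of the cells that were not *CXCL1*-high.

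*LIF*, a cytokine of the same family, was broadly detected. It read 437, 506, 1965 and 924 rpm in *CXCL1*-high cells of A951 to A954 and 458, 403, 196 and 420 rpm in other cells. The groups differed by a log2 ratio of 3.33 in A953 and 1.14 in A954, but by 0.33 in A952 and -0.07 in A951. The pooled log2 ratio was 1.64 and fell to 0.75 when the cells of A953 were left out, below the 2-fold limit. The share of cells was more even than the level: 64.4% of *CXCL1*-high cells had *LIF* at 100 rpm or more (48.8 to 78.1%) against 26.7% of the cells that were not *CXCL1*-high, and within tags the shares were 75.0, 70.0, 58.8 and 64.3% against 27.9, 22.4, 18.2 and 33.7%.

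*NFKBIA*, the inhibitor that NF-kB itself induces, gave the most even result. It read 3332, 2111, 1307 and 1188 rpm in *CXCL1*-high cells and 290, 326, 248 and 415 rpm in other cells of A951 to A954. All 4 values were above all 4 of the other cells, with log2 ratios of 3.52, 2.70, 2.40 and 1.52. The pooled levels were 1644 rpm (1621 to 1668) and 340 rpm (339 to 341), the log2 ratio was 2.28, and no cell held more than 13.3% of the reads in *CXCL1*-high cells. *NFKBIA* reached 100 rpm in 35 of the 45 cells (77.8%, 62.9 to 88.8%) against 31.3% of the cells that were not *CXCL1*-high, and in 75.0, 80.0, 76.5 and 78.6% of the *CXCL1*-high cells by tag.

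*TNFAIP3*, the other feedback gene, did not follow *NFKBIA* in this comparison. Its levels in *CXCL1*-high cells were 189, 0.797, 3.26 and 24.6 rpm in A951 to A954 and 11.7, 9.10, 4.45 and 15.5 rpm in other cells, higher in 2 tags and lower in 2. The A952 value stood for 2 reads in 10 cells (0.0965 to 2.88 rpm). The pooled log2 ratio of 1.37 came from 28.8 rpm (25.8 to 32.1) against 11.1 rpm, and 55.1% of the reads lay in 1 A951 cell. Without that cell the log2 ratio was 0.27, and without all A951 cells it was -0.030. Only 4 of 45 *CXCL1*-high cells had *TNFAIP3* at 100 rpm or more (8.89%, 2.48 to 21.2%, against 2.19%).

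**Figure D2:**
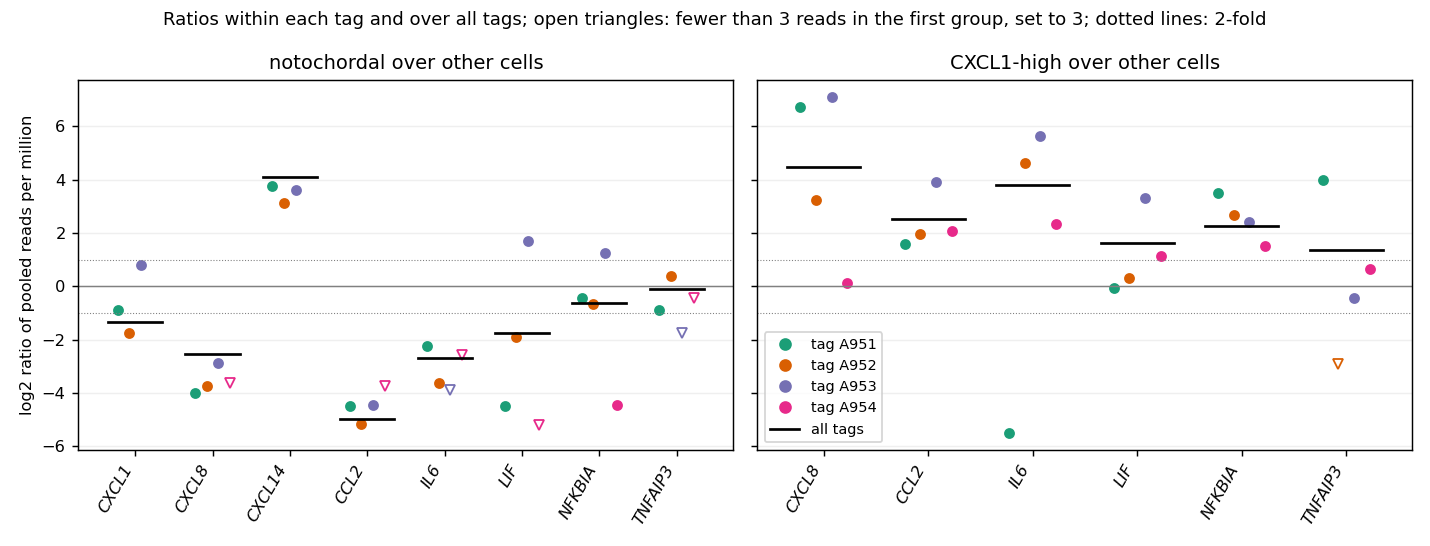
Log2 ratios of pooled rpm against other cells within each tag (points) and over all tags (black lines), for notochordal cells on the left and CXCL1-high cells on the right. NFKBIA and CCL2 are above 1 in all 4 tags of the right panel, TNFAIP3 spreads from -2.93 to 4.01, and CXCL14 is the only gene above 3 in the left panel.

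Cell by cell, the 45 *CXCL1*-high cells carried different partners. *CXCL1*, *CXCL8*, *CCL2*, *IL6*, *LIF*, *NFKBIA* and *TNFAIP3* were counted in each cell at 100 rpm or more. The number of these 7 genes, *CXCL1* included, was 1 in 3 cells, 2 in 12, 3 in 11, 4 in 14, 5 in 4 and 6 in 1, and no cell had all 7. In other cells, where *CXCL1* cannot reach 100 rpm, the number was 0 in 51.3%, 1 in 31.1%, 2 in 11.8%, and 3 or more in the rest. *CXCL8*, *CCL2* and *IL6* were high in 10, 12 and 7 of the 45 cells, and often in different ones. At such shares little overlap is to be expected, and whether these 3 genes avoided each other was not tested. The A951 cell with the highest *CXCL1* (32771 rpm) had *CXCL8* at 43487 rpm, *CCL2* at 1426 rpm and no *IL6* read, whereas the A952 cell with the highest *IL6* (26064 rpm) had *CXCL1* at 1011 rpm and no *CXCL8* or *CCL2* read.

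**Figure D3:**
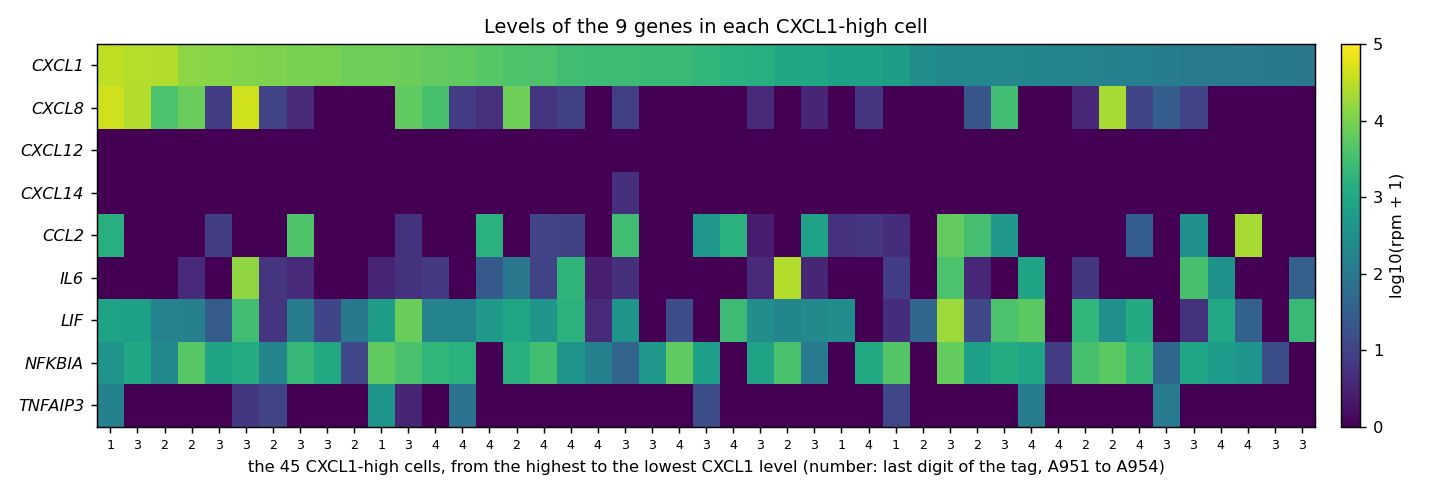
Level of each of the 9 genes, as log10(rpm + 1), in each of the 45 CXCL1-high cells, ordered by CXCL1 from 32771 to 100.2 rpm. NFKBIA and LIF are high in most columns, CXCL8, CCL2 and IL6 each in few columns, so that little overlap is to be expected, and CXCL12 and CXCL14 are at or near 0 throughout.

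The partners were also compared across all levels of *CXCL1*, with NCs left out. *NFKBIA* was at 100 rpm or more in 27.9% of the 4529 cells with no *CXCL1* read (26.6 to 29.3%), in 43.4% of 578 cells above 0 and below 10 rpm, in 70.8% of 212 cells from 10 to below 100 rpm (64.1 to 76.8%), in 68.4% of 19 cells from 100 to below 1000 rpm and in 84.6% of 26 cells at 1000 rpm or more (65.1 to 95.6%). *IL6* followed 3.42, 7.09, 24.1, 21.1 and 11.5% over the same classes, and *CXCL8* followed 2.10, 4.50, 18.4, 10.5 and 30.8%. The partners were thus already more frequent below the limit that chose the *CXCL1*-high cells. The median reads per cell were 188787, 302502, 191032, 192585 and 228590 over the same classes, so the second class was deeper than the rest. The part of depth in these shares was not tested. *CXCL14* was at 1.48, 2.60 and 0.943% in the first 3 classes and in 0 of 45 cells above them.

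**Figure D4:**
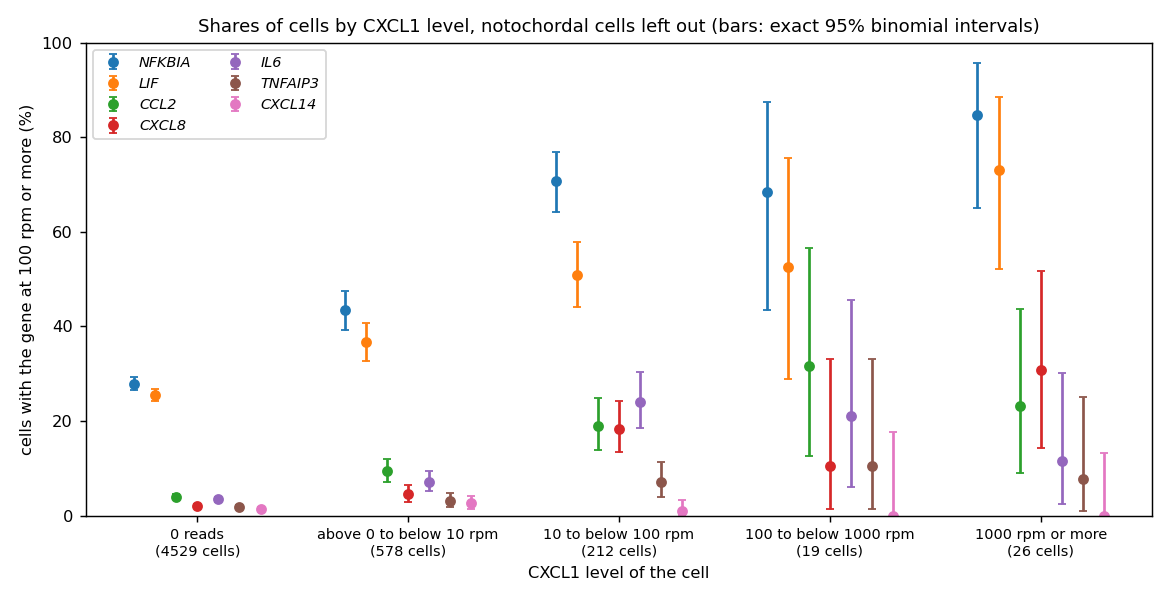
Share of cells with each gene at 100 rpm or more (percent, with exact 95% binomial intervals) in 5 classes of CXCL1 level, notochordal cells left out. The share with NFKBIA is 27.9% in cells without a CXCL1 read and 84.6% in cells at 1000 rpm or more, and that with CXCL14 stays under 3%.

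Other pairs of the genes coincided as well, here over all tagged cells, *CXCL1*-high cells included. Of the 176 cells with *CXCL8* at 100 rpm or more, 79.0% had *NFKBIA* (72.2 to 84.7%), 61.4% *LIF*, 25.6% *CCL2* and 25.6% *IL6* at that level, against 30.1, 25.9, 4.44 and 3.86% of the remaining cells. By tag, *NFKBIA* was at 100 rpm or more in 76.9, 75.9, 81.8 and 79.5% of the *CXCL8*-high cells of A951 to A954 and in 24.9, 25.7, 30.5 and 34.6% of the rest. Of the 257 cells with high *IL6*, 76.3% had high *NFKBIA* and 68.1% had high *LIF* (65.5, 66.0, 68.0 and 70.1% by tag), against 29.5 and 25.0% of the remaining cells. Of the 127 cells with high *TNFAIP3*, 69.3% had high *NFKBIA*, against 30.8% of the remaining cells. Of the 181 cells with high *CXCL14*, 97 were NCs, in which *CCL2*, *CXCL8* and *IL6* were rarely high, as given below. The shares that follow thus partly repeat the contrast of NCs with other cells. Among all 181 cells, 5 had high *CCL2* (2.76%, 0.903 to 6.33%, against 5.17% of the rest), 1 had high *CXCL8* (0.552%, 0.0140 to 3.04%, against 3.19%) and 1 had high *IL6* (0.552% against 4.66%). None had high *CXCL1*, which allows a share of up to 2.02%, against 0.819% of the rest, so a difference was not detectable for *CXCL1*. *NFKBIA* was high in 21.5% of them (15.8 to 28.3%) against 32.0% of the rest, but 100 of the 181 cells carried A952, and by tag the shares were 27.7, 20.0, 15.8 and 20.0% against 26.2, 27.7, 32.0 and 36.6%, with no lower share in A951.

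Several of these genes were lower in NCs than in other cells. *CXCL1* passed the detection limit of 5% of the cells of either group but is left out of the count, since it was used to choose the other cells. Of the other 7 genes that passed, 4 were 2-fold or more lower in NCs (*CCL2*, *IL6*, *CXCL8* and *LIF*), 1 was higher (*CXCL14*), and *NFKBIA* and *TNFAIP3* were within 2-fold. With means over cells of log2(rpm + 1), *LIF* alone of the 4 stayed 2-fold lower (-1.68), while *CCL2* was at -0.49, *IL6* at -0.39 and *CXCL8* at -0.21. *CXCL14* passed that detection limit only through the NCs. The median log2 ratio of the 7 genes was -1.74, the value of *LIF*. Over the 11524 genes compared, 11.9% were 2-fold or more lower, 25.0% were higher and the median was 0.30, so that a lower level in NCs was the less common direction. As all but 7 of the NCs carried A951 or A952, the values of those 2 tags are given for each gene.

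*CXCL14*, a chemokine present in many resting epithelia, read 340 and 214 rpm in NCs of A951 and A952 and 24.8 and 24.4 rpm in other cells of the same tags, log2 ratios of 3.78 and 3.13. The 5 NCs of A953 had 190 rpm against 15.6 rpm, with 95.1% of the reads in 1 cell, and the 2 NCs of A954 had no read. The pooled level was 236 rpm (232 to 239) against 13.8 rpm (13.6 to 14.0), with a log2 ratio of 4.09, and the NC with the most reads held 6.01% of them. It was not a uniform feature of NCs, however. *CXCL14* reached 100 rpm in 97 of 310 NCs (31.3%, 26.2 to 36.8%) and in 1.58% of other cells (1.26 to 1.95%), and 59.4% of NCs had no read of it. Among cells outside the NC definition, 53 had *KRT19* but not *TBXT* at 5 reads or more, and *CXCL14* reached 100 rpm in 30.2% of these (18.3 to 44.3%). The corresponding share was 6.25% of 32 cells with *TBXT* only (0.766 to 20.8%) and 1.25% of 5279 cells with neither (0.968 to 1.59%). The classes differed in their tags, and 35 of the 53 cells with *KRT19* only carried A952. Within A952 *CXCL14* reached 100 rpm in 13 of those 35 cells (37.1%, 21.5 to 55.1%) and in 1 of 11 cells with *TBXT* only (9.09%, 0.230 to 41.3%), and within A954 in 0 of 8 and 1 of 10, so the 2 classes could not be ordered at these numbers.

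*CCL2* had 48 reads in the 67 NCs of A951 and 188 in the 236 NCs of A952, which is 3.93 and 3.66 rpm against 88.6 and 132 rpm in other cells. The log2 ratios were -4.49 and -5.17, and -4.96 over all tags. *IL6* read 24.0 and 7.19 rpm against 115 and 88.1 rpm (-2.25 and -3.62), and 84.0% of its A951 reads lay in 1 NC. *CXCL8* read 4.75 and 29.5 rpm against 76.6 and 393 rpm (-4.01 and -3.73). Each of these genes was at 100 rpm or more in few NCs, namely *CCL2* in 3 of 310 (0.968%, 0.200 to 2.80%), *IL6* in 3 and *CXCL8* in 6 (1.94%, 0.714 to 4.16%), against 5.15, 4.64 and 3.01% of other cells. Within tags the intervals mostly overlapped. In A952 the share with *CCL2* was 0.847% of NCs (0.103 to 3.03%) and 3.84% of other cells (2.67 to 5.32%), and in A951 1.49% (0.0378 to 8.04%) and 3.02% (2.02 to 4.34%). For *IL6* the intervals did not overlap in A952 (0.103 to 3.03% against 3.92 to 6.99%) but did in A951 (0.0378 to 8.04% against 4.41 to 7.54%).

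*LIF* read 20.3 and 107 rpm in NCs of A951 and A952 against 458 and 403 rpm (-4.49 and -1.92), but 644 rpm against 196 rpm in the 5 NCs of A953, where 1 cell held 86.9% of the reads. *LIF* was at 100 rpm or more in 9.03% of NCs (6.09 to 12.8%) and 27.7% of other cells (26.5 to 28.9%). *NFKBIA* was within 2-fold in both tags, with 215 and 204 rpm against 290 and 326 rpm (-0.43 and -0.67). Its share at 100 rpm or more was 30.3% of NCs (25.3 to 35.8%) and 31.3% of other cells (30.1 to 32.6%). *TNFAIP3* read 6.39 and 11.8 rpm against 11.7 and 9.10 rpm, lower in A951 and higher in A952. A single NC held 46.3% of the *TNFAIP3* reads of A952, and without it the pooled log2 ratio went from -0.10 to -0.86. After subtraction of the all-gene median, the pooled log2 ratios of *NFKBIA* and *TNFAIP3* were -0.94 and -0.40.

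*CXCL1* had 44 reads in the 310 NCs, 0.666 rpm (0.484 to 0.894), against 1.68 rpm (1.61 to 1.75) in other cells. By tag the *CXCL1* log2 ratio was -0.88 in A951, within 2-fold, and -1.73 in A952, on 10 and 28 reads in NCs. In the 5 NCs of A953 it was 0.79, on 6 reads. No NC reached 100 rpm, which allows a share of up to 1.18%, and the share was 0.852% of the 5279 cells with neither marker, so that a difference in the share of *CXCL1*-high cells was not detectable at this number of NCs. Since other cells were chosen below 100 rpm, NCs were also compared with all cells that were not NCs, and the log2 ratio was -6.17 in place of -1.34. *CXCL12*, the ligand of CXCR4 that retains stem and immune cells in tissues, was rare. It had 1012 reads in 119 cells. NCs had 0.0908 rpm (0.0333 to 0.198), *CXCL1*-high cells had no read (up to 0.316 rpm) and other cells had 0.794 rpm (0.746 to 0.845). A953 alone gave 717 of the 1006 reads in other cells. Within A952 the NCs were not lower, at 0.0974 against 0.0897 rpm (log2 ratio 0.12). Within A951 the NCs had no read, against 0.0656 rpm in other cells. Of the 10 cells with *CXCL12* at 100 rpm or more, 8 carried A953.

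Other cells differed between tags as well. *CXCL8* ranged from 29.3 rpm in A953 to 393 rpm in A952, with a median over tags of 109 rpm, and 23.8% of the A952 reads lay in 1 cell. A953 had the lowest level of *CXCL8*, *CCL2* (58.5 rpm), *IL6* (19.5 rpm), *LIF* (196 rpm), *NFKBIA* (248 rpm) and *TNFAIP3* (4.45 rpm). The highest tag was A954 for *CCL2* (150 rpm), *NFKBIA* (415 rpm) and *TNFAIP3* (15.5 rpm), and A951 for *IL6* (115 rpm) and *LIF* (458 rpm). *CXCL1* was used to choose the other cells and is given over all tagged cells instead, where it ranged from 23.0 rpm in A954 to 72.4 rpm in A952. *CXCL14* was lowest in A954 (5.54 rpm) and 15.6 to 24.8 rpm elsewhere. The share of other cells at 100 rpm or more was less even for *LIF* (29.6, 25.8, 18.1 and 33.7% in A951 to A954) than for *NFKBIA* (25.6, 25.7, 31.2 and 36.2%). A953 thus had the lowest *NFKBIA* level but the second highest share of *NFKBIA*-high cells. A tag may stand for tissue, animal or sample, and these cannot be told apart.

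The rest of the pathway was read from lists of genes. Of 28 NF-kB feedback and response genes, 24 were counted and 23 passed the detection limit in each comparison. In *CXCL1*-high cells 14 of the 23 were 2-fold or more higher and none was lower, with a median log2 ratio of 1.48, beside 6.66% higher and 24.7% lower over all genes compared. In NCs 13 were lower and 2 were higher, with a median of -1.22, beside 11.9% lower and 25.0% higher over all genes. The genes higher in *CXCL1*-high cells included adhesion molecules for leukocytes (*VCAM1*, 4.01; *ICAM1*, 2.04), matrix proteases (*MMP1*, 2.71; *MMP3*, 1.74), the mitochondrial superoxide dismutase *SOD2* (1.48), the IkB family member *NFKBIZ* (1.86), the early response gene *IER3* (2.45) and the apoptosis inhibitor *BIRC2* (1.36). Of the 14 genes, 7 were higher in all 4 tags (*NFKBIZ*, *TNFAIP2*, *BIRC2*, *IER3*, *SOD2*, *PTGES* and *MMP3*), and 11 remained at 2-fold or more without their top cell. *VCAM1* was higher only in A952 and A953, *ICAM1* in 3 of 4 tags and *MMP1* only in A953, where 1 cell held 72.5% of the *MMP1* reads of the whole group. *BCL3* had 189 of its 210 reads in 1 cell. *MMP3*, stromelysin-1, read 30302 rpm against 9053 rpm with log2 ratios of 1.60, 1.67, 2.14 and 1.51 by tag, and *SOD2* read 3453 against 1237 rpm with 0.51, 2.07, 1.69 and 1.00.

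In NCs the 13 lower genes were all lower in both A951 and A952, and 5 genes of the list were 2-fold or more lower with means over cells of log2(rpm + 1). *SOD2* read 105 rpm against 1237 rpm (log2 ratio -3.55), *MMP3* 582 against 9053 rpm (-3.96), *PTGES*, a prostaglandin E synthase, -5.26 and *NFKBIZ* -1.92. The exceptions were *PTGS2*, the inducible cyclooxygenase, with 1.13 and 1.27 and 1.17 in A951 and A952, and *TNFAIP8* with 1.24. Without its top cell *PTGS2* stood at 0.99, just within 2-fold. *VCAM1* stood at -1.22 with 92.0% of its reads in 1 NC, and at -4.85 without that cell.

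**Figure D5:**
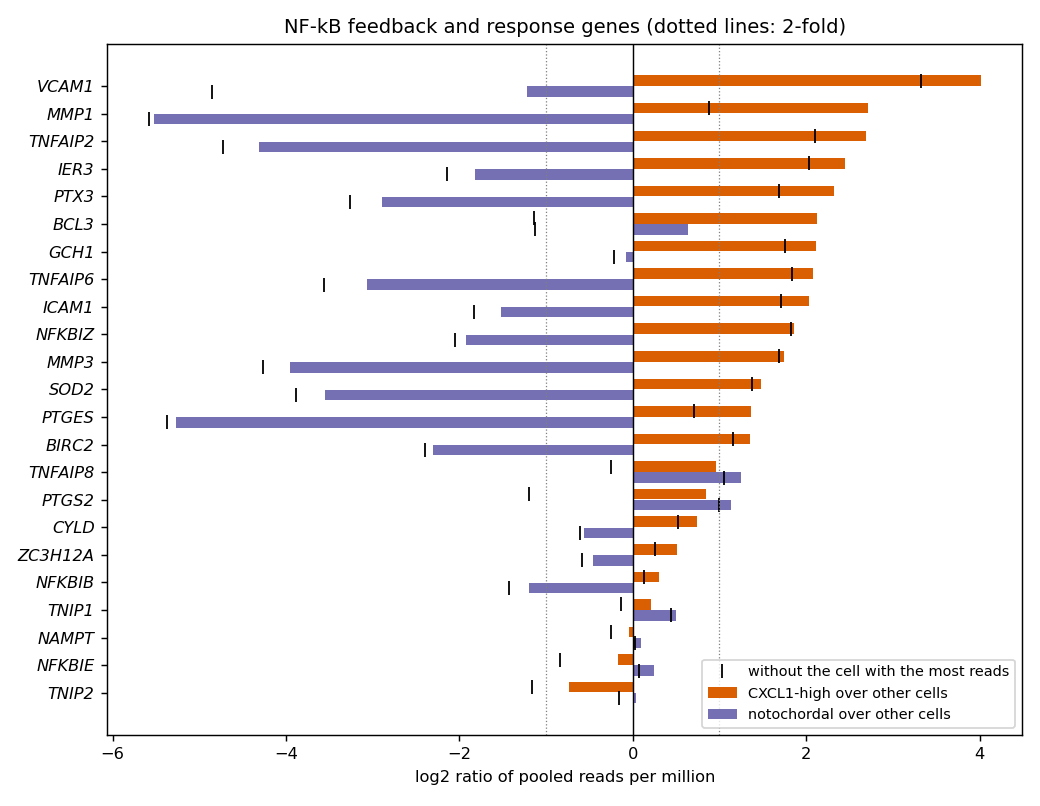
Log2 ratios of pooled rpm of 23 NF-kB feedback and response genes in CXCL1-high cells (orange) and notochordal cells (purple) against other cells, with a tick where the ratio lies without the cell holding the most reads. SOD2 stands at 1.48 and -3.55 and MMP3 at 1.74 and -3.96, and the BCL3 ratio turns from 2.12 to -1.14 without 1 cell.

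The genes of the signalling chain were counted next. Of 17 NF-kB subunits, kinases and adaptors compared in *CXCL1*-high cells, 3 were 2-fold or more higher and 2 lower, with a median of 0.09 (6.66% higher and 24.7% lower over all genes). Of the 3 higher genes, *TRAF1*, an adaptor that NF-kB induces, was higher in all 4 tags (3.49, 3.16, 1.46 and 0.66). The kinase gene *IKBKB* (1.38) was higher in 3 of 4 tags, and the subunit gene *REL* (1.09) was higher in A952 and A953, lower in the other tags and within 2-fold without its top cell (0.78). The lower genes were *IKBKG* (-2.38), the regulatory subunit of the IkB kinase, and *IRAK1* (-1.74), a kinase of the IL-1 receptor, both lower in all 4 tags, with 62.0% of the *IRAK1* reads in 1 cell. *NFKB1*, the p105 and p50 subunit, was within 2-fold at 529 rpm against 314 rpm (0.75) and was also higher in all 4 tags (0.35, 1.19, 1.03 and 0.39), and *RELA*, its p65 partner, 205 against 178 rpm (0.21). In NCs 3 of 16 were higher and 5 lower (25.0% higher and 11.9% lower over all genes), among the latter *NFKB1* at 44.7 rpm (log2 ratio -2.81, and -2.53 and -2.85 in A951 and A952) and *RELA* at 67.6 rpm (-1.40). *TRAF1* (-1.96), *TRAF3* (-1.63) and *NFKB2* (-1.29) were the other lower genes, all lower in A951 and A952. The adaptor *MYD88* (1.95) and the kinases *RIPK1* (1.82) and *MAP3K14* (1.12) were higher in NCs, each in A951 and in A952. Of the upstream cytokines, *IL1B* had 21 reads, all in other cells, and *IL1A* had 44 reads in other cells and 2 in NCs, each at 1 read per cell. *TNF* had 1747 reads in other cells (1.38 rpm, in 74 cells), of which 1 cell held 61.2%. It had 156 reads in *CXCL1*-high cells, all in 1 cell, and 6 in NCs. The receptor *IL1R1*, through which IL-1 acts, was read in all groups, at 528 rpm in NCs, 632 rpm in *CXCL1*-high cells and 746 rpm in other cells, within 2-fold of each other. Of 10 receptor genes compared in NCs, 3 were 2-fold or more higher and 4 lower (25.0% and 11.9% over all genes). The TNF receptor genes *TNFRSF1A* (-1.81) and *TNFRSF1B* (-2.09) and the LIF receptor gene *LIFR* (-1.88) were lower in all 4 tags, and *TLR2* (-2.37) in 3. All 4 genes were lower in both A951 and A952, while A953 and A954 held only 5 and 2 NCs and add little. *TLR4*, a receptor for bacterial lipopolysaccharide, was higher in NCs (6.29, and 7.11 and 4.78 in A951 and A952), as were *IL1RAP* (1.33) and *IL6R* (1.06). The share of other cells with a *TLR4* read is not given here, so the *TLR4* ratio is a description only. *IL6R* stood at -0.46, 0.98, 0.11 and 0.48 in A951 to A954, and at 0.96 without its top cell, within 2-fold. In *CXCL1*-high cells 4 of 9 were higher and 0 lower (6.66% and 24.7% over all genes). Of these, *ACKR3*, an atypical receptor that binds CXCL12, was higher in all 4 tags (2.23 pooled). *TLR2* (1.71) was higher in 3 tags, *LIFR* (1.04) in 2 and *IL1RAP* (1.15) in 1, and without their top cells *LIFR* and *IL1RAP* stood at 0.30 and -0.49.

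Of 28 other chemokine genes, 20 were counted, and 5 passed the detection limit in *CXCL1*-high cells, 3 of them 2-fold or more higher and 2 lower (6.66% and 24.7% over all genes). *CCL7*, a monocyte attractant that lies beside *CCL2* in the RefSeq annotation, was 2-fold or more higher (114 against 41.6 rpm) and higher in all 4 tags, with log2 ratios of 1.96, 0.41, 1.42 and 1.79. *CX3CL1* (2.78) and *CXCL16* (1.31) were also higher, with 59.6% and 33.6% of their reads in 1 cell. Without that cell *CXCL16* fell to 0.76, within 2-fold, and it was lower in A951 and A952 (-1.85 and -0.32). *CCL25* (-3.11) and *CXCL6* (-2.74) were lower, on 8 and 5 reads. *CXCL6* passed the detection limit only through the *CXCL1*-high cells, so its ratio is a description only. Only 5 of the other cells had 5 or more reads of *CXCL6*. In NCs all 4 chemokines that passed were 2-fold or more lower (*CXCL16*, *CCL7*, *CCL25* and *CX3CL1*; 11.9% over all genes). In A951 *CCL7* was higher (1.12) and *CX3CL1* stood at 0.15, against -2.98 and -4.77 in A952.

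Immediate early and heat shock genes, which respond to many kinds of handling, differed between the groups as well. In NCs 9 of 11 were 2-fold or more higher, beside 25.0% of all genes, with a median log2 ratio of 2.00, and all 9 were higher in both A951 and A952. *JUN* read 3104 rpm in NCs, 227 rpm in *CXCL1*-high cells and 522 rpm in other cells. In *CXCL1*-high cells none of 10 was higher and 4 were lower (*JUN*, *FOS*, *DNAJB1* and *HSPH1*), beside 24.7% lower over all genes, and each of the 4 was lower in all 4 tags. The part of these genes, and of tissue digestion, in the levels of the chemokines was not tested.

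Markers of blood and vessel cells were compared in the same groups. The 10 leukocyte markers counted summed to 51.8 rpm in *CXCL1*-high cells, 29.0 rpm in NCs and 24.9 rpm in other cells (8.47, 68.5, 81.7 and 24.1 rpm in *CXCL1*-high cells of A951 to A954). *CD68*, which many cells with lysosomes express, made up 41.7 rpm of this and was 2-fold or more higher than in other cells (17.1 rpm, log2 ratio 1.29), higher in 3 of 4 tags and at 0.80 without its top cell. *CD14*, a monocyte marker, read 6.94 against 3.10 rpm, with 95.1% of its reads in 1 cell. *PTPRC*, the pan-leukocyte gene *CD45*, had 7 reads in the 45 cells (0.600 rpm, 0.241 to 1.24), close to 0.701 rpm in other cells, and *LYZ*, *MS4A1* and *FCER1G* had none. The 6 endothelial markers summed to 1.89, 4.39 and 3.71 rpm in *CXCL1*-high cells, NCs and other cells. *COL2A1*, the type II collagen gene of cartilage, read 19488, 14417, 4916 and 18591 rpm in *CXCL1*-high cells of A951 to A954 and 24529, 24025, 18170 and 18509 rpm in other cells, so that the *CXCL1*-high cells of A953 had the lowest *COL2A1* beside the highest *PRG4*. The 6 synovial or fibroblast markers, led by the lubricin gene *PRG4*, summed to 24925 rpm in *CXCL1*-high cells, 1362 rpm in NCs and 15762 rpm in other cells. In NCs all 6 were 2-fold or more lower (11.9% over all genes), with a median log2 ratio of -3.66, and all 6 were lower in both A951 and A952. By tag they were lower in *CXCL1*-high cells of A951 (12535 against 15549 rpm) and A952 (10712 against 14146 rpm) and higher in those of A953 (46495 against 19697 rpm) and A954 (15936 against 14036 rpm). The 4 mural markers summed to 72.4 rpm in *CXCL1*-high cells, 144 rpm in NCs and 50.9 rpm in other cells. In NCs 2 of the 3 compared were 2-fold or more higher (25.0% over all genes), *ACTA2* at 3.46 and *RGS5* at 1.49. *ACTA2* was lower in A951 (-2.23) and higher in A952 (4.24). The 1 erythroid marker counted read 0.0857, 0.0151 and 0.0450 rpm in the same order of groups. The part of these cell types in the result was otherwise not tested.

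Across cells, the genes whose pattern was most like that of each member were found by the Spearman correlation of rpm within each tag, averaged over the 4 tags, among 11066 genes. These values describe cells of 1 library that share depth and are not tests. *NFKBIA* was most like *SOD2* (0.33), *NFKBIZ* (0.32) and *IER3* (0.29), and *LIF* was most like *HBEGF* (0.26), *TMEM88* (0.24) and *BIRC2* (0.22). *CXCL14* was most like *KRT19* (0.21), *NRN1* (0.20) and *TBXT* (0.20). The gene most like *CXCL1* was *NFKBIA* (0.18), followed by *SOD2* and *NFKBIZ* (0.16 each). For *CXCL8*, *CCL2*, *IL6*, *TNFAIP3* and *CXCL12* the highest value was 0.15 or less, which is too weak in sparse counts to be read.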

How the data were processed

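Single cells were sequenced by TAS-seq in 1 library of 5723 cells. The authors aligned reads with HISAT2 (2.2.1) to the *Macaca fascicularis* genome, whose build is not given in the sources used here. They assigned reads to genes by strand with featureCounts (2.0.2), allowing reads with several positions, and deposited counts of reads per gene and cell without normalization or molecular identifiers. Of the values above 0, 32.2% were 1 read. A second matrix of 1358 columns, which the labels do not list, was not used.

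All 5674 cells with 1 tag were kept. Pooled rpm, shares, ratios and intervals were computed in Python 3.11.15 (numpy 2.4.6, scipy 1.17.1, pandas 2.3.3, matplotlib 3.10.9) and tested on simulated data. Named were the members, the listed pathway genes, the 3 genes most like each member, and the 5 genes with the largest ratio in each direction in *CXCL1*-high cells, of which 1 is not reported here. The members and lists were chosen with earlier results of these data known. Alternatives were the study's limits on cells (200 to 9000 genes, under 5% mitochondrial reads), means over cells, thinning to 50000 reads, totals without the 50 genes with the most reads, *KRT19* and *TBXT* reads added, no detection limit, detection from 5 reads, other *CXCL1* limits, leaving out the top cell or each tag and, chosen after seeing the data, other comparison cells and equal weights of tags. Sequences were not used here.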

Additional observations from a re-analysis of the deposited data

How the results depend on the processing

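The count of genes at 2-fold or more was 6 in NCs, *CXCL1* included, and 6 in *CXCL1*-high cells. In NCs it was 6 without any 1 tag, but without A952 *CXCL1* was lost (-0.61) and *TNFAIP3* was added (-1.11). It fell to 2 (*CXCL14* and *LIF*) with means over cells of log2(rpm + 1), a scale on which the many cells without reads weigh more, and the 13 response genes lower in NCs fell to 5. In *CXCL1*-high cells it ran from 5 to 7 without 1 tag and was otherwise 5 to 8. *TNFAIP3* in *CXCL1*-high cells ran from -0.030 without A951 to 2.01 without A954. The share of *CXCL1*-high cells was 1.30% at a limit of 50 rpm and 0.599% at 200 rpm, and ran from 0.653 to 0.883% without 1 tag. The response genes higher in *CXCL1*-high cells numbered 11 to 17 over all alternatives, with 13 to 17 when 1 tag was left out. Totals without the 50 genes with the most reads moved the all-gene median in NCs from 0.30 to 0.09, with the same 6 genes called. Of 250 ratios of single genes under alternatives, 125 moved by less than 0.2, 124 moved more, and 1 called ratio reversed. Leaving out the top cell of each gene moved the all-gene median in *CXCL1*-high cells from -0.26 to -0.81. Replicates could not be paired, as the labels give 1 library and no replicate numbers. Groups were paired within tags, as values without a test. *CXCL1*-high cells number 45, and sparse genes in them rest on few cells. Where a group had fewer than 3 reads and 3 reads lay above the other group's level, no ratio was given. An exact sign-flip test over the 4 tags, which was not run, could not go below a p of 0.125.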

Other observations

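The genes with the largest ratios in *CXCL1*-high cells, among 9804 genes with a read in 10% or more of either group's cells, were partly carried by single cells. On the higher side were *CHGB*, a granin of secretory vesicles (236 against 5.32 rpm), *CXCL8*, *CASP12*, *ACSS1* and *VCAM1* (579 against 35.8 rpm), and 99.9% of the *CHGB* reads lay in 1 cell. *CASP12* and *ACSS1* had at least 5 reads in 3 and 2 of the 45 cells. *CHGB* and *CASP12* passed the 10% limit only through the *CXCL1*-high cells (11.1% each, against 6.43% and 1.84% of other cells), so their ratios are descriptions only. Among those on the lower side were *IL17B*, a cytokine of the IL-17 family (1.20 against 137 rpm), *ECI1*, *MCM4* and *KCTD2*. *ECI1* and *MCM4* passed the limit only through other cells (18.3% and 15.5%, against 4.44% each), and are likewise descriptions only. *IL17B* had a read in 22.2% of the *CXCL1*-high cells and 24.9% of other cells.

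Of the receptors listed, *ACKR3*, which binds CXCL12 and takes it up, was 2-fold or more higher in *CXCL1*-high cells and was higher in all 4 tags. Of the cytokines listed, *IL11*, *CSF3* and *CLCF1* were lower in NCs than in other cells in all 4 tags, *CLCF1* at 44.9 against 302 rpm.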
